A study of Mus musculus with 10 samples.

Results

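The genes described here carry glucose into the cell, break it down to pyruvate and send the pyruvate either to lactate or to the mitochondria. They are 33 mouse genes, listed by symbol: 5 that take up and trap glucose, 6 of the phosphofructokinase step, 9 from aldolase to pyruvate kinase, 4 of lactate formation and transport, and 9 that govern the entry of pyruvate into mitochondrial metabolism. All 33 were found among the 18381 genes of the count table, and all 33 passed the filter on low counts that left 14504 genes tested. The members are defined by symbol alone.

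First lower molars of wild type C57BL/6JOlaHsd embryos at embryonic day 14 were cultured in hanging drops for 6 h. From each of 5 embryos, numbered 1, 2, 3, 4 and 6, a single tooth received recombinant mouse insulin-like growth factor 1 (IGF1) at 750 ng/ml, and its partner from the other side received the vehicle, phosphate buffered saline with bovine serum albumin. Each tooth made its own RNA-seq library, which gives 5 IGF1 and 5 control samples that differ in treatment and share embryo, age and time in culture. A cultured tooth germ is cut off from its blood supply, and its RNA is a mixture of all its cells, so that fewer cells of a type and less RNA per cell cannot be told apart. Total estimated counts ran from 2845773 to 8403151 in the control teeth and from 3456634 to 8763113 in the IGF1 teeth, with the lowest total of each group in embryo 1. The epithelial markers Krt14 (433 ± 92 CPM, SD, n = 5) and Epcam (113 ± 9.85 CPM) and the dental mesenchyme markers Msx1 (264 ± 25.8 CPM) and Pax9 (259 ± 28.5 CPM) were all expressed in the control teeth, which fits the label of the tissue.

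Glucose enters most embryonic cells through facilitative transporters and is trapped by phosphorylation with a hexokinase. Phosphofructokinase commits the sugar to breakdown, and the later steps of the pathway yield pyruvate with a net gain of ATP. Lactate dehydrogenase turns pyruvate into lactate, which leaves through monocarboxylate transporters, whereas the pyruvate dehydrogenase complex sends pyruvate to the tricarboxylic acid cycle unless pyruvate dehydrogenase kinases switch the complex off. Insulin-like growth factors act through a receptor tyrosine kinase and are known to stimulate glucose uptake, and many genes of glycolysis are also textbook targets of the hypoxia-inducible factors.

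Most of the pathway was higher in the IGF1 teeth. Of the 33 genes, 22 were called higher and 1, Pdk2, was called lower by edgeR's quasi-likelihood test with embryo as a block, at a Benjamini-Hochberg adjusted p under 0.05 over all genes tested. Among all 14504 genes, 6.72% were called higher and 4.76% lower. The 22 genes were higher in all 5 pairs, with log2 fold changes from 0.53 to 2.95 (median 1.3), beside a median of 0.51 for the 975 genes called higher. Over all 33 genes the median log2 fold change was 1.09, whereas over all genes tested it was 0. In 15 of the 33, every IGF1 tooth lay above every control tooth, a pattern found in 4.21% of all genes. The opposite pattern was found in 0 of the 33 and in 3.03% of all genes. The share of all counts that fell on the 33 genes was 0.434%, 0.343%, 0.297%, 0.408% and 0.314% in the control teeth of embryos 1, 2, 3, 4 and 6, and 0.702%, 1.27%, 1.0%, 0.632% and 0.548% in their IGF1 partners. Each tooth with IGF1 gave glycolysis a larger part of its RNA than any control tooth.

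**Figure D1:**
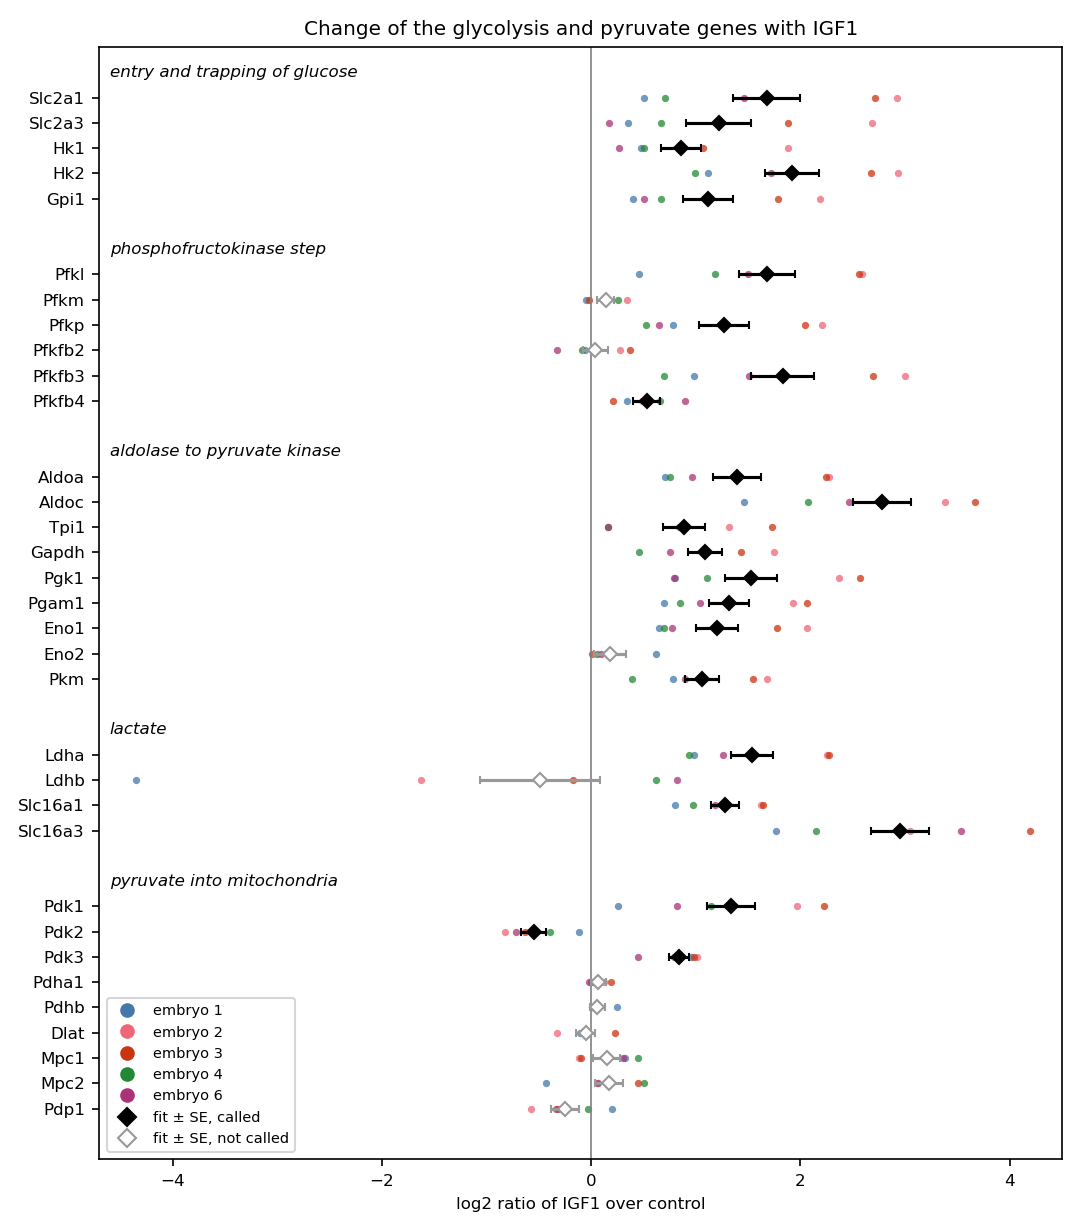
Log2 ratio of IGF1 over control for each of the 33 genes, grouped by step. Dots are the differences within each of the 5 embryos, diamonds and bars the fitted log2 fold change and its standard error (filled where called, open where not). The filled diamonds lie between 0.53 and 2.95 except that of Pdk2 at -0.55, and the open ones lie between -0.49 and 0.18.

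The 10 genes that were not called had log2 fold changes from -0.49 to 0.18, and 0 of them had an unadjusted p under 0.05 in edgeR or were called by DESeq2 or limma-voom. Over all genes tested, 14.3% were higher and 12.2% lower at an unadjusted p under 0.05. The 10 genes not called fell in particular places of the pathway. Of the 9 genes that govern the entry of pyruvate into mitochondrial metabolism, 6 were not called. Of the other 24 genes 4 were not called, each an isozyme whose relatives at the same step rose (Pfkm, Pfkfb2, Eno2 and Ldhb).

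Because many of the genes changed together, their RefSeq promoters (GRCm38.p6) were read for short letter patterns, from 250 bases before to 50 bases after a start. The patterns were ACGTG and GCGTG, the core letters bound by hypoxia-inducible factors, and CACGTG, the E-box bound by Myc, Usf and related factors, which contains ACGTG. Both strands were searched. The table held 48 promoters of 31 of the 33 genes, with Slc2a3 and Pdp1 missing. The 250 bases before the start are shown for 6 genes called higher, from hexokinase to the lactate transporters. Those of Pfkm, which was not called, and Pdk2, which was called lower, follow. Every promoter shown holds ACGTG. Gpi1, Pfkl, Pfkp, Pfkfb4, Tpi1, Eno1 and Pdk1, also called higher, hold it in none of their promoters and are not shown. Each sequence shown reads 5′ to 3′ along the gene's strand, with ACGTG and GCGTG, or the reverse complement of either, in capitals.
Hk2, chr6:82774455-82774704, minus strand: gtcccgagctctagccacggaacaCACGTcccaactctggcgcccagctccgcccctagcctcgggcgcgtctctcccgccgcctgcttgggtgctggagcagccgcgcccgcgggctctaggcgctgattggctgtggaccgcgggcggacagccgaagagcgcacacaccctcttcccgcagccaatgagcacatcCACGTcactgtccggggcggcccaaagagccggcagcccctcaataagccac
Pfkfb3, chr2:11502091-11502340, minus strand: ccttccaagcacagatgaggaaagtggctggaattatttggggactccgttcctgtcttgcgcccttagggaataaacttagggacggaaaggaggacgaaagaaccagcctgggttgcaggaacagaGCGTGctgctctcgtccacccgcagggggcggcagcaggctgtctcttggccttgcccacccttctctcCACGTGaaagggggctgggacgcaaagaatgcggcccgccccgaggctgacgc
Pgk1, chrX:106186850-106187099, plus strand: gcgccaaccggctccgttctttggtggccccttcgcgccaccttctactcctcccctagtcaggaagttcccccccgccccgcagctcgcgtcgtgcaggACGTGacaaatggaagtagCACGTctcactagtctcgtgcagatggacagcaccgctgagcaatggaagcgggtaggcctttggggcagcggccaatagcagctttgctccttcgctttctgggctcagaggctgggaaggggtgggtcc
Ldha, chr7:46845554-46845803, plus strand: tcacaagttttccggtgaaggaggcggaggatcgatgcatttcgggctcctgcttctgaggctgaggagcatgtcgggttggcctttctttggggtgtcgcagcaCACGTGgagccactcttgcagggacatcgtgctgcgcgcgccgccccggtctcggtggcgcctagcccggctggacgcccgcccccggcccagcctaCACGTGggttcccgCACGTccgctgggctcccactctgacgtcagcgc
Slc16a1, chr3:104638414-104638663, plus strand: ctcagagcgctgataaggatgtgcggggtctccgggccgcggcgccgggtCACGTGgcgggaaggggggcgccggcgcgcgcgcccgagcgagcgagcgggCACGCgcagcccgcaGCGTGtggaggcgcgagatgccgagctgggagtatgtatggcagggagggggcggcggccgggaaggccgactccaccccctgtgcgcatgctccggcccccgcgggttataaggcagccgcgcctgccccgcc
Slc16a3, chr11:120948817-120949066, plus strand: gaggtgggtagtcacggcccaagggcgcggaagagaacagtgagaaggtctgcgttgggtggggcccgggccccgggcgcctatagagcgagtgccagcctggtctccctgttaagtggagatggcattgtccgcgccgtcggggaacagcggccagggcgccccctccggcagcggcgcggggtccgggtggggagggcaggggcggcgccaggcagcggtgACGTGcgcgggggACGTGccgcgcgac
Pfkm, chr15:98092339-98092588, plus strand: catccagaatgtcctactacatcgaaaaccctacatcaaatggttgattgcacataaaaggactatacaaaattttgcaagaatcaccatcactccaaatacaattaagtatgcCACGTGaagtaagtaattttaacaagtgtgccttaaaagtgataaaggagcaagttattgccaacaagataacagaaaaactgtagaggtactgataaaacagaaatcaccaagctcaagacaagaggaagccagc
Pdk2, chr11:95041372-95041621, minus strand: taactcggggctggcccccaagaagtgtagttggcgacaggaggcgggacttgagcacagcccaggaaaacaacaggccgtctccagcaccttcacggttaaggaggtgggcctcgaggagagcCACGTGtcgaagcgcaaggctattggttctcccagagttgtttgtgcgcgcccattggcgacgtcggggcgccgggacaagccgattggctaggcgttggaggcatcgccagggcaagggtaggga

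Runs of CACGTG in capitals are E-boxes, and they appear above Ldha, Slc16a1 and Pfkfb3, which rose, and also above Pfkm and Pdk2, which did not. The starts shown for Ldha and Pdk2 are RefSeq starts that matched no GENCODE transcript, and the other promoter of each, which matched, held neither ACGTG nor CACGTG. A gene was counted as holding a pattern if any of its promoters did. Promoters on chromosome 18 and those without the full window were left out of all counts. ACGTG was found in 18 of 31 of the genes (58.1%). It was found in 28.3% of the 10717 tested genes with a promoter counted and in 21.8% of all 27025 genes counted. It was present for 14 of the 21 genes called higher that had a promoter and for 4 of the other 10. For Aldoc, Ldha, Pgam1, Pkm, Slc2a1, Pdhb and Pdk2 it was found only at starts that matched no GENCODE transcript. The counts and shares use all RefSeq starts, matched or not. GCGTG was found in 67.7% of the genes and in 54.7% of tested genes, and again in 14 of the 21 called higher, but here in 7 of the other 10. CACGTG was found in 19.4% of the genes and in 11.3% of tested genes, in 3 of the 21 and in 3 of the other 10. These are counts of letters in fixed windows. Genes with several promoters had more chances to hold a pattern, and binding was not measured.

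All 5 genes for the uptake and trapping of glucose were called higher (median log2 fold change 1.22). Throughout, levels are CPM, the counts scaled to a common library total after TMM normalization, and series of values follow the order of embryos 1, 2, 3, 4 and 6. Slc2a1 encodes GLUT1, the basal glucose transporter of growing tissues. It read 163, 94.1, 77.6, 122 and 67.1 CPM in the control teeth and 233, 716, 508, 200 and 185 CPM in the IGF1 teeth. The groups did not overlap, although the highest control tooth, from embryo 1, came close to the lowest IGF1 tooth. The log2 fold change was 1.68 ± 0.32 (SE, adjusted p = 0.00772), a 3.2-fold rise.

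Slc2a3 encodes GLUT3, a transporter of high affinity. It read 34.7, 19.1, 20.6, 23.1 and 21.2 CPM in the control teeth and 44.3, 124, 76.7, 36.8 and 23.8 CPM with IGF1. The groups overlapped, since the control tooth of embryo 1 lay above the IGF1 tooth of embryo 6, and the log2 fold change was 1.22 ± 0.31 (adjusted p = 0.0296). This call was lost without embryo 2, 3 or 4 (adjusted p of 0.0606, 0.0827 and 0.0537) and in DESeq2 (0.0995).

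Hk2, the insulin-responsive hexokinase, showed the clearest change of the step. It read 53.2, 40.3, 33.9, 55.2 and 32.7 CPM in the control teeth and 116, 310, 218, 110 and 108 CPM with IGF1. Even the lowest IGF1 tooth lay far above the highest control tooth. The log2 fold change of 1.92 ± 0.26 (adjusted p = 0.00108) ranked 36 among the 14504 genes. Hk1, the housekeeping hexokinase, rose less, from 49.4 ± 8.9 to 92.9 ± 36.3 CPM (mean ± SD, n = 5), with a log2 fold change of 0.86 ± 0.19 (adjusted p = 0.0167), and its groups overlapped. Gpi1, the isomerase that turns glucose 6-phosphate into fructose 6-phosphate, rose from 196 ± 36.2 to 461 ± 237 CPM (log2 fold change 1.12 ± 0.24, adjusted p = 0.0128).

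**Figure D2:**
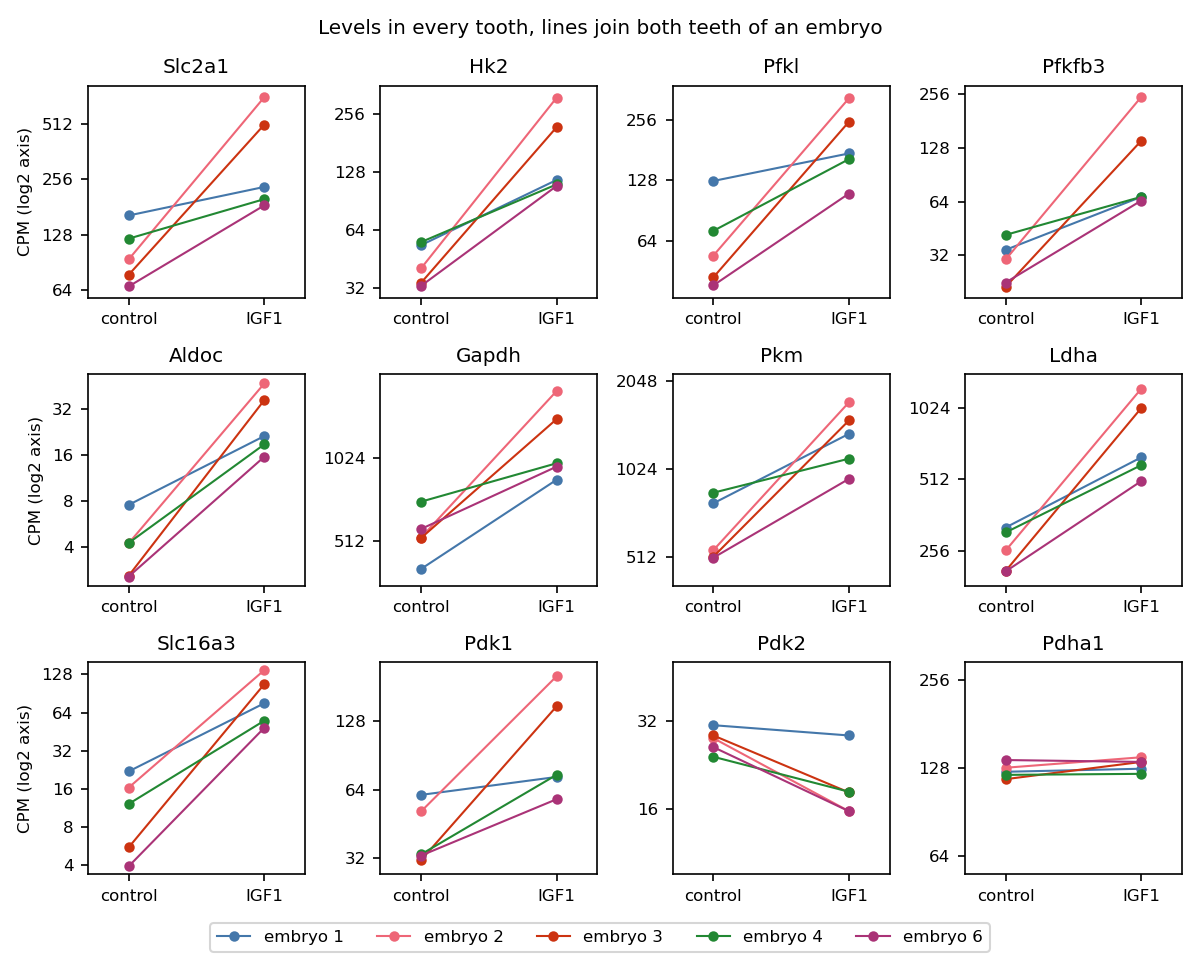
Levels of 12 of the genes in every tooth, in CPM on a log2 axis, with lines joining the control and IGF1 tooth of an embryo. The steepest lines are mostly those of embryos 2 and 3, as for Slc2a1, which went from 94.1 to 716 and from 77.6 to 508 CPM. Pdk2 falls in all 5 pairs and Pdha1 stays between 117 and 139 CPM.

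At the phosphofructokinase step the answer depended on the isozyme. Of its 6 genes, 4 rose and 2 were not called. Pfkl, the liver-type subunit of phosphofructokinase, read 127, 54.1, 42.2, 71.8 and 38.5 CPM in the control teeth and 174, 327, 250, 163 and 110 CPM with IGF1. The control tooth of embryo 1 exceeded the IGF1 tooth of embryo 6, so the groups overlapped, but every pair rose, and the log2 fold change was 1.68 ± 0.27 (adjusted p = 0.00268). Pfkp, the platelet-type subunit, rose from 39.5 ± 6.93 to 102 ± 52.2 CPM with no overlap (log2 fold change 1.27 ± 0.24, adjusted p = 0.00689). Its exons overlap those of Pitrm1 on the opposite strand over 748 bases, and Pitrm1 itself had a log2 fold change of -0.1 (adjusted p = 0.539). Pfkm, the muscle-type subunit, read 46.3 ± 5.12 CPM in control and 50.9 ± 4.78 CPM in IGF1 teeth, with a log2 fold change of 0.14 ± 0.08 (adjusted p = 0.316) and 3 of 5 pairs higher.

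The Pfkfb genes encode bifunctional enzymes that make and remove fructose 2,6-bisphosphate, the strongest activator of phosphofructokinase. Pfkfb3, whose enzyme mainly makes the activator, read 34.4, 30.4, 21.4, 41.7 and 22.6 CPM in the control teeth and 68, 246, 140, 68 and 64.8 CPM with IGF1. No control tooth reached the lowest IGF1 tooth, and the log2 fold change was 1.83 ± 0.3 (adjusted p = 0.00321), a 3.56-fold rise. Pfkfb4 moved from 13.1 ± 2.99 to 18.6 ± 3.42 CPM (log2 fold change 0.53 ± 0.13, adjusted p = 0.0275), the smallest rise among those called, and its call was lost without embryo 2, 4 or 6 (adjusted p of 0.0647, 0.102 and 0.1), without the embryo block (0.129) and in DESeq2 (0.0632). Pfkfb2, the heart-type enzyme, read 25.9 ± 4.22 and 26.5 ± 4.38 CPM, with a log2 fold change of 0.04 ± 0.12 (adjusted p = 0.866).

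From aldolase to pyruvate kinase, 8 of 9 genes were called higher (median log2 fold change over the 9, 1.2), and in 7 of them the groups did not overlap. Aldoc, the aldolase known from the brain, changed most. Its level was 7.56, 4.24, 2.6, 4.26 and 2.57 CPM in the control teeth and 21.3, 47, 36.6, 18.8 and 15.6 CPM with IGF1. Each IGF1 tooth thus held more than any control tooth, and the log2 fold change of 2.78 ± 0.28 (adjusted p = 0.000175), a 6.89-fold rise, ranked 7 among all genes tested. Aldoa, the main aldolase here, rose from 264 ± 79.3 to 723 ± 330 CPM (log2 fold change 1.39 ± 0.23, adjusted p = 0.00356). The annotation gives the symbol Aldoa to another gene identifier as well, at 1.33 ± 0.611 CPM in control teeth, which was not called (log2 fold change 0.71, adjusted p = 0.312) and was not used.

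Gapdh, which makes the first NADH of the pathway and is often used as a constant reference, was not constant. It read 406, 527, 525, 710 and 566 CPM in the control teeth and 852, 1780, 1410, 977 and 950 CPM with IGF1. All IGF1 teeth lay above all control teeth, with a log2 fold change of 1.09 ± 0.16 (adjusted p = 0.00151). Mouse Gapdh has many processed pseudogenes, and 52 near-identical copies in the table held from 8.43% to 46.6% of the counts summed over Gapdh and the copies in a tooth. With the copies added in, the log2 fold change was 1.04 (adjusted p = 0.001).

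Pgk1, the first enzyme of the pathway to make ATP, rose from 200 ± 41.9 to 616 ± 285 CPM (log2 fold change 1.53 ± 0.25, adjusted p = 0.00334). Pgam1, the mutase that follows it, rose from 211 ± 36.4 to 548 ± 206 CPM (1.32 ± 0.19, adjusted p = 0.00134). Eno1, the ubiquitous enolase, rose from 255 ± 38.3 to 617 ± 260 CPM (1.2 ± 0.2, adjusted p = 0.00325). These are consecutive steps, and the groups did not overlap at any of them. The near-identical Eno1b held 7.73% to 16.5% of the summed Eno1 counts, and the log2 fold change of the sum was again 1.2. Eno2, the neuronal enolase, read 9.75 ± 1.99 CPM in control and 11.3 ± 3.1 CPM in IGF1 teeth, and although higher in 5 of 5 pairs it was not called (0.18 ± 0.15, adjusted p = 0.496).

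Pkm, the pyruvate kinase of most tissues, ends this stretch. Its level was 781, 540, 513, 849 and 509 CPM in the control teeth and 1350, 1730, 1500, 1110 and 947 CPM with IGF1. The groups did not overlap, and the log2 fold change was 1.06 ± 0.16 (adjusted p = 0.00224). Gene counts do not separate its M1 and M2 splice forms, so these values are for both together.

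Tpi1, triose phosphate isomerase, stood apart from its neighbours in the pathway by its spread between embryos. It read 219, 141, 44.6, 19.4 and 106 CPM in the control teeth and 393, 354, 149, 21.7 and 119 CPM with IGF1. The embryos ranged far more widely than for the other genes of this stretch, in either group, and each pair was higher with IGF1 (log2 fold change 0.89 ± 0.2, adjusted p = 0.0163). The call was lost without the embryo block (adjusted p = 0.451), without embryo 2 (0.0553) and in DESeq2 (0.0524). No near-identical copy of Tpi1 was found in the table, and the source of its spread was not tested.

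Of the 4 genes of lactate formation and transport, 3 were called higher and 1, Ldhb, was not called (median log2 fold change 1.41). Ldha, the lactate dehydrogenase subunit that favours lactate, read 321, 257, 211, 306 and 210 CPM in the control teeth and 633, 1230, 1020, 587 and 503 CPM with IGF1. No values overlapped, and the log2 fold change was 1.54 ± 0.2 (adjusted p = 0.000775). Ldhb, the subunit that favours the return to pyruvate, was barely expressed, at 5.84, 3.21, 5.2, 1.28 and 3.03 CPM in the control teeth and 0, 0.832, 4.59, 2.12 and 5.57 CPM with IGF1. Those values rest on 0 to 44 counts a tooth, and the count of 0 in the IGF1 tooth of embryo 1 allows a level of up to 0.862 CPM (3 counts, counting error only). It was not called (-0.49 ± 0.57, adjusted p = 0.635).

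The lactate transporters among the 33 genes rose in every pair, and the largest change of the 33 was here. Slc16a3 encodes MCT4, the exporter of strongly glycolytic cells. It read 22, 16.4, 5.55, 12.2 and 3.94 CPM in the control teeth and 75.7, 138, 107, 55.2 and 48.5 CPM with IGF1. Its log2 fold change of 2.95 ± 0.28 (adjusted p = 0.000126), 7.73-fold, ranked 4 among all genes tested. Slc16a1 encodes MCT1, which carries lactate either way. It read 35.4, 36.4, 28.5, 27.9 and 28 CPM in the control teeth and 61.6, 113, 89.3, 55 and 63.8 CPM with IGF1, so that the groups were far apart, and its log2 fold change was 1.28 ± 0.13 (adjusted p = 0.000153). Bsg, the chaperone that brings both transporters to the cell surface, rose from 182 ± 31.9 to 252 ± 52 CPM (0.46, adjusted p = 0.0289), a call lost without embryo 3 or 6 (0.0581 and 0.078) and without the block (0.0697). Emb, another partner of these transporters, was called lower (55.6 ± 6.37 to 45.6 ± 9.68 CPM, -0.3, adjusted p = 0.0485), but not without embryo 1, 2, 3 or 4 (0.109, 0.132, 0.113 and 0.132), without the block (0.261), with no count filter (0.0639), in DESeq2 (0.106) or in limma-voom (0.0524).

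At the entry of pyruvate into the mitochondria the pattern changed. Of 9 genes, 2 were called higher, 1 lower and 6 not called (median log2 fold change 0.07). The 3 called were all pyruvate dehydrogenase kinases, which shut the complex off. Pdk1 read 60.8, 51.4, 31.4, 33.3 and 32.9 CPM in the control teeth and 72.9, 202, 149, 74.5 and 58.2 CPM with IGF1, and its groups overlapped at embryos 1 and 6 (1.34 ± 0.23, adjusted p = 0.00446). Pdk3 read 25.1, 36.8, 30.8, 26.5 and 38 CPM in the control teeth and 48.7, 74.6, 61.1, 46 and 52.1 CPM with IGF1. Its groups did not overlap, and its pairs were among the most even of the 22, from 0.45 to 1.01 on the log2 scale (0.84 ± 0.1, adjusted p = 0.000491).

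Pdk2 was the single gene of the 33 to fall. It read 30.9, 27.9, 28.5, 24.1 and 26 CPM in the control teeth and 28.5, 15.7, 18.2, 18.3 and 15.7 CPM with IGF1. All IGF1 teeth but that of embryo 1 lay below all control teeth, and the log2 fold change was -0.55 ± 0.12 (adjusted p = 0.0141), a level 0.681 times that of control. The call was lost without the embryo block (adjusted p = 0.0643). Pdk4, a further kinase outside the 33 that fasting is known to induce, fell from 9.45 ± 1.13 to 3.97 ± 1.96 CPM (-1.37, adjusted p = 0.00889).

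The pyruvate dehydrogenase complex and the mitochondrial pyruvate carrier showed no such change. Pdha1 and Pdhb, the subunits of its first enzyme, read 125 ± 7.4 against 131 ± 6.92 CPM and 65.8 ± 5.67 against 69 ± 3.46 CPM in control against IGF1 teeth. Dlat, the acetyltransferase of the complex, read 47.7 ± 5.28 and 45.9 ± 4.51 CPM. Their log2 fold changes were 0.07 ± 0.07, 0.06 ± 0.07 and -0.05 ± 0.09, and none was called. The carrier subunits Mpc1 (0.15 ± 0.13) and Mpc2 (0.17 ± 0.13) were not called either. Pdp1, a phosphatase that switches the complex back on, had a log2 fold change of -0.25 ± 0.13 (adjusted p = 0.265), whereas Pdp2, a related phosphatase outside the 33, rose from 25.1 ± 1.61 to 39.1 ± 3.6 CPM (0.63, adjusted p = 0.0027). Pdpr, the regulatory subunit of the phosphatase, was called lower (-0.41, adjusted p = 0.00758) and was lower in 5 of 5 pairs.

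To compare levels between genes, CPM was divided by the length of the annotated exons in kb. This length joins all annotated exons of a gene and can exceed that of the transcript expressed, so comparisons between genes are approximate. On this scale the most abundant of the 33 in the control teeth were Gapdh (132), Pkm (128), Pgam1 (106), Aldoa (90.8), Pgk1 (89.3) and Ldha (78.9 CPM per kb). With IGF1 these 6 read 289, 266, 277, 248, 275 and 240 CPM per kb, closer to each other in proportion than before. The levels of Aldoc (from 1.3 to 8.53) and Slc16a3 (from 2.26 to 15.9 CPM per kb) stayed far below those even after their rise.

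The isozyme makeup of several steps moved with the treatment. Shares were computed in each tooth from CPM per kb within a family. The share of Hk2 in the hexokinase pair was 55.2 ± 3.1% in control and 71.6 ± 5.22% in IGF1 teeth. Among the phosphofructokinase subunits, Pfkl went from 35.4 ± 8.9% to 55.9 ± 6.56%, and Pfkm from 53.2 ± 7.69% to 30.5 ± 8.77%. In the means the leading subunit by this measure changed, although in embryo 1 Pfkl already led in the control tooth (49.4% against 42.5%). In CPM not divided by length, Pfkl already led Pfkm in the control means (66.6 against 46.3 CPM). The change of lead thus depends on the exon lengths used. Pfkfb3 went from 38.5 ± 5.31% to 63.2 ± 12.5% of its family, and Slc16a3 from 22.5 ± 9.89% to 47 ± 5.07% of the transporter pair. Each of these shares moved the same way in 5 of 5 pairs.

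In other families a single gene held most of the total in both groups. Aldoa held 98.6 ± 0.257% of the aldolase pair in control and 96.7 ± 0.247% in IGF1 teeth, Eno1 95.8 ± 0.742% and 97.7 ± 0.939% of the enolase pair, and Slc2a1 89.7 ± 2.02% and 92.6 ± 1.06% of the transporter pair. Ldha held 97 ± 1.5% and 99.2 ± 0.906% of the lactate dehydrogenase pair. Among the kinases, Pdk2 fell from 33.1 ± 3.03% to 15.3 ± 5.99% in 5 of 5 pairs, while Pdk1 rose from 20.3 ± 5.33% to 31.8 ± 8.96% in 4 of 5. With 5 pairs an exact two-sided sign-flip test cannot give a p below 0.0625, and the shares are given as a description with no test.

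**Figure D3:**
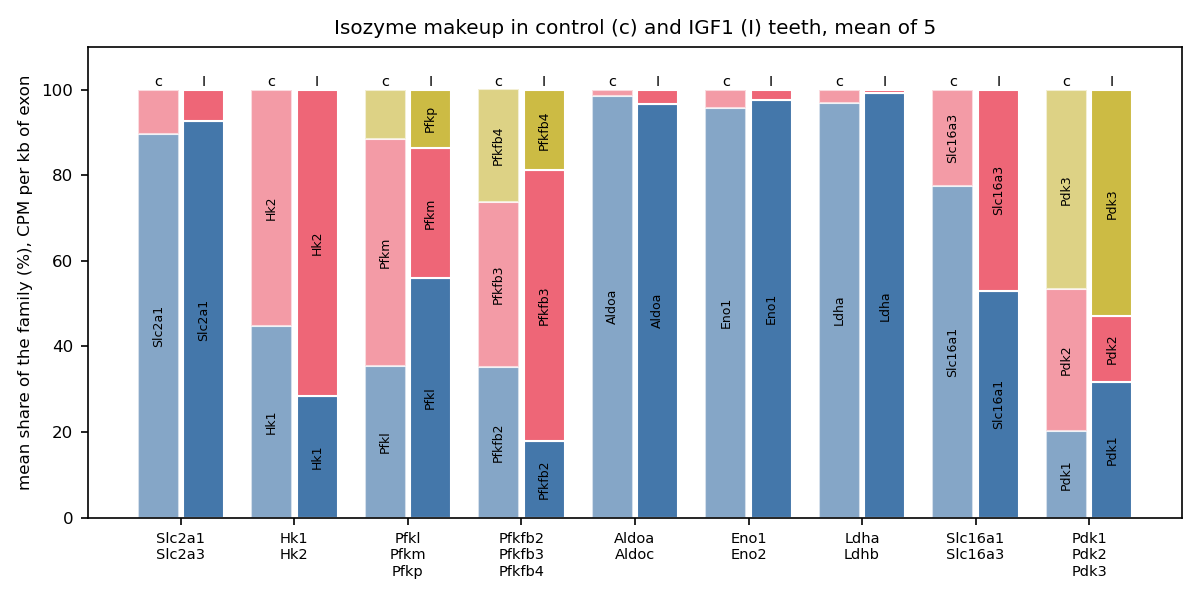
Mean share of each gene in its isozyme family, in percent of summed CPM per kb of exon, in control (c, pale) and IGF1 (I, dark) teeth, n = 5 each. Examples of segments that move are Pfkl (35.4% to 55.9%), Pfkm (53.2% to 30.5%), Pfkfb3 (38.5% to 63.2%), Slc16a3 (22.5% to 47%) and Pdk2 (33.1% to 15.3%), while Aldoa, Eno1 and Ldha fill more than 95% of their families in both groups.

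The size of the response differed between embryos and did so in common across the genes. For the 22 genes called higher, the median log2 difference within a pair was 0.78, 2.2, 2.05, 0.73 and 0.9 in embryos 1, 2, 3, 4 and 6. The corresponding medians of all 975 genes called higher were 0.49, 0.55, 0.49, 0.49 and 0.52. In 20 of the 22, the largest differences were those of embryos 2 and 3, the exceptions being Slc16a3 and Pfkfb4. Of all genes called higher, these 22 included, 18.5% had this pattern. Summed over the 22, the level was 3840, 3030, 2540, 3670 and 2770 CPM in the control teeth and 6580, 12700, 9650, 5880 and 5140 CPM with IGF1. The control teeth of embryos 2 and 3 lay below those of embryos 1 and 4, whereas their IGF1 partners were the highest by far. The control tooth of embryo 6 lay between those of embryos 2 and 3, but its IGF1 partner was the lowest. The SD of log2 CPM was larger among IGF1 than among control teeth in 18 of the 22 genes, with medians of 0.63 and 0.34, compared with 59.2% of all genes called higher. Leaving out embryo 2, 19 of the 33 genes were called higher, and leaving out embryo 3, 21.

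Targets of the hypoxia-inducible factors outside glycolysis, a list drawn up with earlier results of these data in view, were also highest in the same embryos. Of 15 such genes tested, 13 were called higher and 0 lower by edgeR (median log2 fold change 1.69). At an unadjusted p under 0.05, 14 were higher and 0 lower, and DESeq2 called 12 higher and 0 lower. Over all genes tested, edgeR called 6.72% higher and 4.76% lower, and 14.3% were higher and 12.2% lower at an unadjusted p under 0.05. The median differences of the hypoxia targets were 0.54, 2.75, 2.24, 0.86 and 0.74 in embryos 1, 2, 3, 4 and 6. Their summed level ran from 640 to 912 CPM in control and from 1030 to 3970 CPM in IGF1 teeth. Examples are Ankrd37 (log2 fold change 2.9, adjusted p = 0.00249), Bnip3 of mitochondrial turnover (2.2, adjusted p = 0.00193), Higd1a of the respiratory chain (2.14, adjusted p = 0.000806) and the oxygen sensor Egln3 (2.1, adjusted p = 0.0103). The part of these genes, or of oxygen in the cultures, in the result for glycolysis was not tested.

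**Figure D4:**
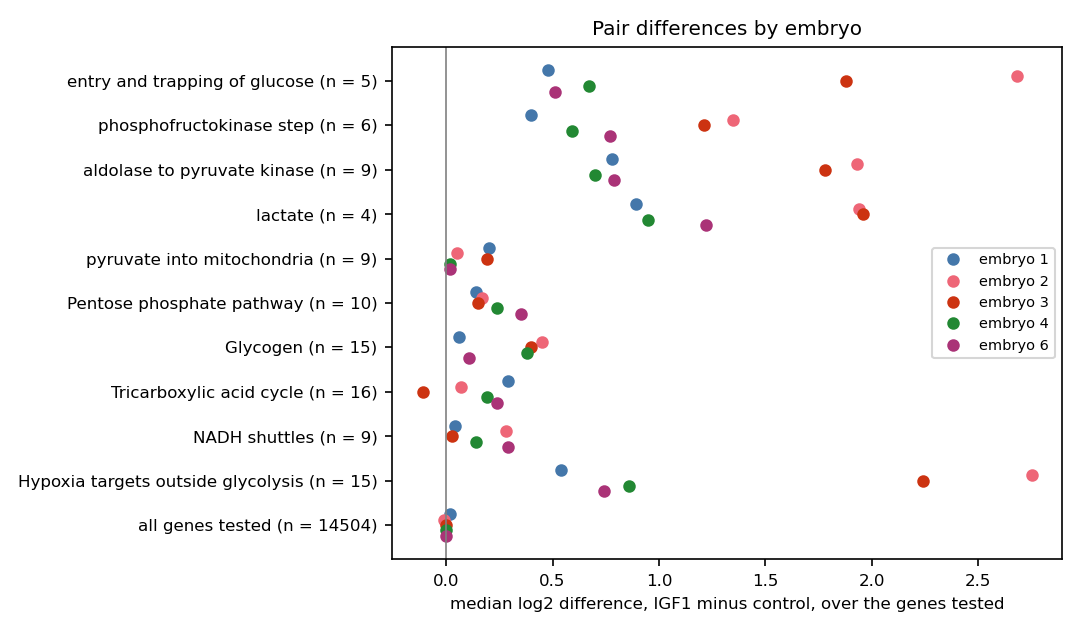
Median log2 difference (IGF1 minus control) within each embryo over the tested genes of each step, of neighbouring pathways, of hypoxia targets outside glycolysis and of all genes tested. Embryos 2 and 3 lie to the right for the steps from glucose entry to lactate (1.21 to 2.68) and for the hypoxia targets (2.75 and 2.24), while the mitochondrial step and all genes tested stay between -0.01 and 0.2.

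None of the genes for factors that bind such promoters was called higher by edgeR, DESeq2 or limma-voom. Of 11 tested, 2 were higher at an unadjusted p under 0.05 and 2 were called lower by edgeR. Over all genes tested, 14.3% were higher at an unadjusted p under 0.05, and edgeR called 6.72% higher and 4.76% lower. The 2 called lower were Myc (-0.55, adjusted p = 0.00389) and Mycn (-0.74, adjusted p = 0.00976), both of which encode growth-related factors that bind E-boxes. Mycn lost its call without the embryo block (0.163). Hif1a read 282 ± 45.3 CPM in control and 341 ± 66.4 CPM in IGF1 teeth (0.27, adjusted p = 0.089), and Arnt, its partner, 125 ± 5.02 and 124 ± 12.8 CPM. Hypoxia-inducible factors are known to be governed mainly by protein stability, which RNA counts do not show.

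For neighbouring pathways, the counts stand beside 6.72% called higher and 4.76% called lower over all genes tested, and beside 14.3% higher and 12.2% lower at an unadjusted p under 0.05. Of 20 tested paralogs and partners of the glycolysis genes, 4 were called higher and 3 lower by edgeR (median 0.11), compared with 2 and 2 by DESeq2, 3 in all without the embryo block and 4 in all without embryo 2, 3 or 4. At an unadjusted p under 0.05, 6 were higher and 3 lower. Tigar, a phosphatase that lowers fructose 2,6-bisphosphate, had a log2 fold change of 0.77 (adjusted p = 0.0306), and its call was lost without embryo 2, 4 or 6 (0.0675, 0.115 and 0.143), without the block (0.09) and in DESeq2 (0.0755). In the pentose phosphate pathway, which draws on glucose 6-phosphate, 2 of 10 were called higher, Tkt (139 ± 11 to 207 ± 19.5 CPM, log2 fold change 0.57, adjusted p = 0.000737) and Taldo1 (0.41, adjusted p = 0.0118), and 0 lower. At an unadjusted p under 0.05, 6 of the 10 were higher and 0 lower. Among those not called, Pgd (0.32, adjusted p = 0.0565) and G6pdx (0.27, adjusted p = 0.0812) were higher in 5 of 5 pairs. Taldo1 lost its call without embryo 6 (adjusted p = 0.0543) and without the embryo block (0.0572).

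Of 15 glycogen genes, 3 were called higher and 0 lower, and 7 were higher and 1 lower at an unadjusted p under 0.05. Pgm1, which links glucose 6-phosphate and glycogen, rose from 15.9 ± 4.95 to 55.7 ± 32 CPM (1.75, adjusted p = 0.00224), and Gys1, glycogen synthase, from 43 ± 9.42 to 87.1 ± 35.6 CPM (0.98, adjusted p = 0.0049). Ppp1r3b, a glycogen-targeting subunit of protein phosphatase, moved less (0.31, adjusted p = 0.0364), and was not called without embryo 2, 3, 4 or 6 (0.12, 0.0778, 0.116 and 0.0568) or without the block (0.101). Of 4 gluconeogenesis genes tested, edgeR called 0 in either direction, limma-voom called 1 higher and DESeq2 0, and at an unadjusted p under 0.05 there were 2 higher and 1 lower. Slc37a4, the glucose 6-phosphate transporter, had a log2 fold change of 0.65 (adjusted p = 0.0529).

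Of 16 genes of the tricarboxylic acid cycle, 2 were called higher and 0 lower (median 0.11), and 5 were higher and 0 lower at an unadjusted p under 0.05. They were Cs, citrate synthase (160 ± 12.9 to 215 ± 9.57 CPM, 0.43, adjusted p = 0.00359), and Idh3a (0.28, adjusted p = 0.0421). The call of Idh3a was lost without embryo 1, 3, 4 or 6 (0.103, 0.0589, 0.136 and 0.167), without the block (0.18), in DESeq2 (0.124), under total-count scaling (0.0569) and with no count filter (0.0544). Of 9 genes of the shuttles that carry the electrons of cytosolic NADH into mitochondria, Mdh1 (0.42, adjusted p = 0.00497) and Got2 (0.36, adjusted p = 0.0129) were called higher and 0 lower, and 3 were higher and 0 lower at an unadjusted p under 0.05. Got1 (0.53, adjusted p = 0.0903) and the carriers Slc25a11, Slc25a12 and Slc25a13 (-0.05, 0.15 and 0.07) were not called.

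Marker genes of the tooth's cell types are given beside the same shares over all genes tested, 6.72% called higher and 4.76% lower. Of 10 epithelial markers 1 was called higher (Krt5, 0.43) and 0 lower, and their summed level ran from 1660 to 2410 CPM in control and from 1920 to 2650 CPM in IGF1 teeth. Of 10 mesenchymal markers 0 were called higher and 2 lower (Pdgfra, -0.53, and Vim, -0.42), with summed levels of 6980 to 9120 and 6490 to 9070 CPM. Among 8 endothelial markers 2 were called lower by edgeR, Cdh5 and Esam (413 to 472 against 336 to 441 CPM in sum), and DESeq2 called 1 higher and 1 lower. Flt1, an endothelial receptor of vascular growth factor, went the other way in 5 of 5 pairs (0.46, adjusted p = 0.0506). Among 7 tested macrophage markers 1 was lower, Csf1r (56 to 77.9 against 49.3 to 76.6 CPM). At an unadjusted p under 0.05 in edgeR, 3 epithelial markers were higher and 1 lower, and 1 mesenchymal marker was higher and 3 lower. By the same measure, 1 endothelial marker was higher and 5 lower, and 0 macrophage markers were higher and 2 lower. Over all genes tested, 14.3% were higher and 12.2% lower at this threshold. Without the embryo block, Krt5 (adjusted p = 0.107), Vim (0.0706), Cdh5 (0.0797), Esam (0.126) and Csf1r (0.303) lost their calls. Leaving out embryo 6 ended the call of Krt5 (0.0646), embryo 2 or 4 that of Cdh5 (0.0537 and 0.0545), embryo 3, 4 or 6 that of Csf1r (0.05, 0.102 and 0.0669), and any embryo that of Esam (0.0593 to 0.137), while DESeq2 called neither Esam (0.103) nor Csf1r (0.064).

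Red cell genes fell most among the markers. Of 7 tested, 5 were called lower, led by the embryonic globin Hbb-y (-0.63, adjusted p = 0.000886), and 6 were lower and 0 higher at an unadjusted p under 0.05. The sum ran from 851 to 1430 CPM in control and from 606 to 1110 CPM in IGF1 teeth. Of 4 muscle and 2 glial markers tested, 0 were called in either direction by edgeR, DESeq2 or limma-voom, and 0 had an unadjusted p under 0.05 in edgeR, with sums of 32.7 to 114 against 20.2 to 159 CPM and of 73.8 to 96.5 against 69.8 to 80.8 CPM. Without the embryo block Hbb-bs (0.188), Hbb-bt (0.206) and Hba-a1 (0.0574) lost their calls and Hbb-y did not. The other red cell gene called lower was Hba-a2 (-0.39, adjusted p = 0.0463), and its call under the alternatives is not given. Of 5 neuronal markers 1 was called higher (Tubb3, 0.7), with sums of 27.3 to 48.5 and 29.5 to 60.8 CPM. This call was lost without embryo 1, 2, 4 or 6 (0.0687, 0.0545, 0.0967 and 0.144) and without the block (0.175). At an unadjusted p under 0.05, 2 of the 5 were higher and 0 lower. None of the marker genes in the table was at 0 in every tooth, and the part of cell makeup in the glycolysis result was not tested.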

How the data were processed

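The authors deposited estimated counts per gene from the 10 molar libraries, without normalization and with whole-number values. The submitters' processing notes name FastQC 0.11.8, Trimmomatic 0.39, Salmon 0.99.0, DESeq2 and the build GRCm38, and libraries were made with the Ovation Mouse RNAseq System. The transcript set, the use of strand and any rounding are not given in the sources used here. Without strand, overlapping genes cannot be told apart, and near-identical copies can share reads.

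Symbols came from GENCODE mouse M21. Counts were tested in edgeR 4.0.16 (R 4.3.3) with filterByExpr, TMM scaling, the quasi-likelihood test, embryo as a block and Benjamini-Hochberg adjustment over 14504 genes, and a gene was called at an adjusted p under 0.05. The block follows the labels, which pair the teeth by embryo. How far a tooth lay from its group's mean correlated between partners of embryos 1, 2, 3, 4 and 6 at 0.319, 0.208, -0.0389, 0.17 and 0.313, and between embryos at a median of -0.0463. Differences within pairs are of log2 CPM with a prior count of 2, and the SD of log2 CPM used a pseudocount of 0.5. A single tooth per embryo and treatment was sequenced. With embryo as a block, the p-values therefore rest on how the difference between IGF1 and control teeth varied between embryos. Differences in level shared by both teeth of an embryo are taken up by the block.

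All 33 genes were named, and of every other list up to 4 genes with the largest change among those called and moved the same way in 5 of 5 pairs, together with the marker genes needed to describe the tissue. Slc37a4, Arnt, Hif1a, Emb, Pdpr, Flt1, Pgd, G6pdx, Got1, Hba-a2 and the shuttle carriers were added after their values were seen. The genes and lists were chosen with earlier results of these data known. Copies were found with blastn 2.17.0 on transcripts (at least 95% identity over 200 bases and 50% of the copy's exons). Alternatives were DESeq2 1.42.0, limma-voom 3.58.1, RLE or total-count scaling, other count filters, no block, each embryo left out and, chosen after seeing the data, copies summed. The procedure was tested on simulated data.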

Additional observations from a re-analysis of the deposited data

Results flagged for a closer look

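Groups of 5 teeth were examined for the 33 genes and for the 30 other genes chosen by the rule for named genes. Further genes named in the text were not examined. In 5 of the 126 groups, a single tooth lay apart from the rest by more than Dixon's critical ratio of 0.71. The ratio is the gap to the nearest tooth divided by the range of the group. Chance gives about 1 in 20, or 6.3 of 126. Among the glycolysis genes there were 3 of 66 groups. Slc2a3 stood at 34.7 CPM in the control tooth of embryo 1, compared with 19.1 to 23.1 CPM in the other control teeth (ratio 0.744). Pfkfb4 stood at 7.88 CPM in the control tooth of embryo 6, below 13.4 to 15.1 CPM in the others (ratio 0.762). Pdk2 stood at 28.5 CPM in the IGF1 tooth of embryo 1, above 15.7 to 18.3 CPM in the others (ratio 0.793), so that its fall rests on embryos 2, 3, 4 and 6. Outside glycolysis, Mdh1 stood at 188 CPM in the IGF1 tooth of embryo 6, above 138 to 151 CPM (ratio 0.738), and Egln3 at 24 CPM in the control tooth of embryo 1, above 8.98 to 11.4 CPM (ratio 0.842). Embryo 1, with the lowest totals, gave 3 of the 5. The causes were not tested.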

How the results depend on the processing

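The number of glycolysis genes called higher was 22 under limma-voom, RLE or total-count scaling, either count filter and with near-identical copies summed, 19 in DESeq2 and 20 without the embryo block. It ran from 19 to 22 with an embryo left out. The genes lost were Pfkfb4, Slc2a3 and Tpi1, and no other. The number called lower went from 1 to 0 without the block (Pdk2, log2 fold change -0.53, adjusted p = 0.0643), which changed no further call among the 33 than Pfkfb4, Tpi1 and Pdk2. Over all genes, 887 were called without the block in place of 1666, and 986 to 1602 with an embryo left out (986 without embryo 4 and 994 without embryo 6). Only Pfkfb2 and Dlat, neither of them called, changed sign: with an embryo left out, Pfkfb2 ran from -0.0554 (without embryo 3) and -0.0195 (without embryo 2) to 0.13, and Dlat from -0.13 to 0.0251 (without embryo 2). The cause was not tested. Of 428 values of the 33 genes under alternatives, 412 kept their direction and side of the threshold, 13 lost the call and 3 changed sign. Of 389 values of the 30 other genes chosen by the rule for named genes, 50 lost the call, in Bsg, Tigar, Taldo1, Ppp1r3b, Idh3a, Mycn and the markers Krt5, Vim, Cdh5, Esam, Csf1r, Hba-a1, Hbb-bs, Hbb-bt and Tubb3. Of the genes named later, Emb also lost its call, as given beside it, and alternatives for Hba-a2 are not given. Total-count scaling moved the median log2 fold change of all genes to -0.019. Depth limits Ldhb most, with 0 to 44 counts a tooth, and embryo 1 has the fewest counts.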
